A study of Mus musculus with 18 samples.

Results

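The 10 genes described here, Dazl, Taf7l, Tex11, Aurkc, Mael, Stk31, Ddx4, Sycp1, Sycp3 and Tdrd1, act in germ cells and in meiosis. They were taken by name: every probe of the raw array table whose target name, whatever its case, was one of the 10 symbols. This gave 14 probes among the 46643 probes and 34325 target names of the table. Gene expression was measured in E14 cells, an established mouse embryonic stem cell line, grown on gelatin-coated dishes with serum and LIF, a cytokine that supports self-renewal. A transfected plasmid expressed a short hairpin RNA (shRNA) that targeted Esrrb, a nuclear receptor active in self-renewing stem cells, or GFP as control. RNA was taken at days 2, 4 and 6 from 3 biological replicates per shRNA and day, so that 18 arrays formed 6 groups. The labels name 1 hairpin target per arm, so off-target effects and the loss of Esrrb cannot be told apart. A group always took the same slot on the 3 BeadChips, which leaves slot and group confounded.

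Germ cells use a set of genes that most other cells keep silent. DAZL binds germ cell mRNAs and DDX4 is an RNA helicase of the germ granule. MAEL and TDRD1 act with PIWI proteins, which use small RNAs to silence transposons. SYCP1 and SYCP3 build the synaptonemal complex that holds homologous chromosomes together in meiosis, and TEX11 acts in meiotic recombination. AURKC is a meiotic aurora kinase, TAF7L a germ cell relative of the TFIID subunit TAF7, and STK31 a testis protein with a tudor and a kinase domain. In embryonic stem cells many such genes are repressed by DNA methylation of CpG-rich promoters, by H3K9 methylation and by a Polycomb complex that reaches DNA through MGA with MAX and through E2F6.

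RefSeq promoter windows of assembly GRCm38.p6, each 300 bases long and running from 250 bases before to 50 bases after an annotated start, were found for 9 of the 10 genes. Tex11 was the gene with no entry. The windows of 5 measured genes follow, some with and some without the MGA and MAX motif. All 5 were called lower in Esrrb shRNA cells at day 6, so the motif could not be set against an unchanged measured gene. The lines run 5′ to 3′ on the strand of the gene, and capitals mark CACGTG (the E-box bound by MGA with MAX) and GCGGGAA (an E2F motif). The windows lie at chrX:134476441-134476740 for Taf7l, chr6:49395289-49395588 for Stk31, chr13:112652261-112652560 for Ddx4, chr17:50293571-50293870 for Dazl and chr7:6995135-6995434 for Aurkc. Stk31 and Aurkc are on the plus strand, the other three on the minus strand.
Taf7l: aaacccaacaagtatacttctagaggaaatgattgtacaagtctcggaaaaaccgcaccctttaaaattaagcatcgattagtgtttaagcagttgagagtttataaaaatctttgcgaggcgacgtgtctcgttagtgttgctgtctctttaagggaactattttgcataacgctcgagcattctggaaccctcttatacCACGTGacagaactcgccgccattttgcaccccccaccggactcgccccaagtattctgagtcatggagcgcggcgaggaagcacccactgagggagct
Stk31: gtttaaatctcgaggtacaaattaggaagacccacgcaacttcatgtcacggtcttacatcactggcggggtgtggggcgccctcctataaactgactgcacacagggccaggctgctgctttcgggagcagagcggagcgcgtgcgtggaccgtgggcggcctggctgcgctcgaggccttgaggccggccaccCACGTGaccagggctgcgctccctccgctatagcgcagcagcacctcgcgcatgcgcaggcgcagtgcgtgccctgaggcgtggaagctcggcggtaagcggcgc
Ddx4: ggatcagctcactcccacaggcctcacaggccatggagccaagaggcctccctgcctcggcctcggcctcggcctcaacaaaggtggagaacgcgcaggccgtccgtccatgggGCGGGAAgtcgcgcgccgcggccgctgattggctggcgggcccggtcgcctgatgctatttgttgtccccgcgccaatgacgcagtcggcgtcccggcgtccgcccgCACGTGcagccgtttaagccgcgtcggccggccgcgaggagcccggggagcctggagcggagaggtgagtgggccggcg
Dazl: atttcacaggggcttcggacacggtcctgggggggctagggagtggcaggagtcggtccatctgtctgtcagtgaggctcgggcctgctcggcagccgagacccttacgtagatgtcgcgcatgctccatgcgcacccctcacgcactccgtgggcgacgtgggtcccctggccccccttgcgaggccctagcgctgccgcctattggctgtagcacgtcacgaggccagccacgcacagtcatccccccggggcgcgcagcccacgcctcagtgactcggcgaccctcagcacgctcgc
Aurkc: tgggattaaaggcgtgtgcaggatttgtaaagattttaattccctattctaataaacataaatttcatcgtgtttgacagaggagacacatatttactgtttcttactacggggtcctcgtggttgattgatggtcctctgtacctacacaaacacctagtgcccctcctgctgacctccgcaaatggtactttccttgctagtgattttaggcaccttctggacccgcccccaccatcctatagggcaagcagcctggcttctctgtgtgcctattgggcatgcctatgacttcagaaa

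The E-box was present in at least 1 window of 7 of the 9 genes, against 8.09% of 27025 genes with a window. CACGTG and GCGGGAA each hold a CpG, and the shares over all genes were not matched for CpG content. Both strands were searched, and in the windows of the 9 genes no match overlapped one of another motif. The first base of the E-box lay 49 bases before the start in Taf7l, 55 in the first window of Stk31 and 29 in Ddx4. In genes that were not measured above background it lay 223 bases before the start in Mael, 94 in Sycp1, 11 in the first window of Tdrd1, and 64 and 43 in Sycp3, which held 2 matches. Dazl and Aurkc held none. The E2F motif was found in Ddx4, 136 bases before the start, and in Sycp3, 147 bases before it, against 5.29% of all genes. The motif TCAAGGTCA of Esrrb-type receptors was in 0 of the 9 genes and in 0.466% of all genes, and these letters say nothing of sites outside the windows. The observed over expected CpG ratio was 1.03 in the Taf7l window, 0.978 in Ddx4, 0.908 in the first window of Stk31, 0.795 in Dazl and 0.381 in Aurkc, where the median of all 32851 windows was 0.384. Aurkc was therefore the measured gene with a CpG ratio near the genome's usual promoter, and the other four lay above it.

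**Figure D1:**
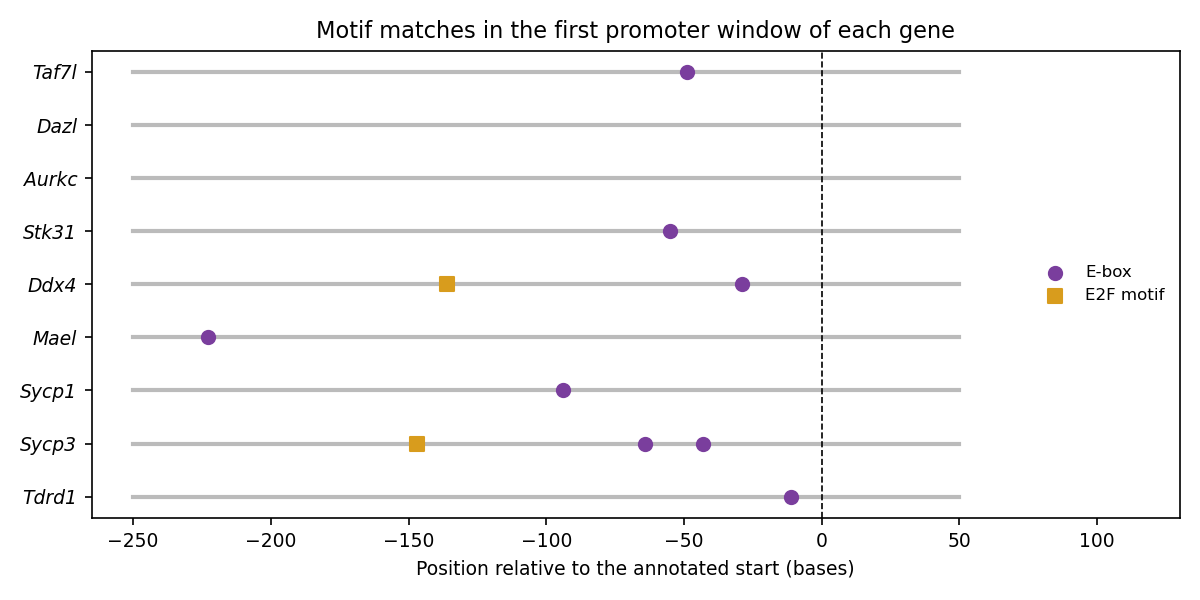
Motif matches in the first promoter window of the 9 genes with an entry. The x axis gives the position in bases relative to the annotated start (dashed line), grey lines span the window, circles mark CACGTG (E-box) and squares GCGGGAA (E2F motif); Dazl and Aurkc carry neither motif.

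The targeted transcript was low in each knockdown group. Esrrb read 13.38 to 14.04 on the 9 GFP shRNA arrays and 10.96 to 12.34 on the 9 Esrrb shRNA arrays (log2 normalized intensity). It stood at 21.3% of the control level at day 2, 15.2% at day 4 and 27.4% at day 6. The mean of the 2 Esrrb probes on the array, of which 1 is dim, gave smaller differences (-1.18, -1.34 and -0.94 in log2, against -2.23, -2.72 and -1.87). Array medians of raw intensity lay between 60.4 and 76.9, with 37.7% to 42.6% of probes detected. Of the 5 stem cell markers on the array, 5 were detected in each group, with a summed level of 14.02 to 14.18 on the GFP arrays and 13.64 to 13.94 on the Esrrb arrays. Of the 8 fibroblast markers, 2 were detected on all 3 arrays of each group. Col1a1, Col1a2, Col3a1, Dcn, Lum and Postn were so detected in no group. Of the 10 gonadal somatic markers, 4 to 6 were detected on all 3 arrays, depending on the group. Amh, Cyp17a1, Foxl2 and Inha were so detected in no group. At day 6 the summed fibroblast list lay between 8.69 and 8.75 in GFP and between 7.99 and 8.14 in Esrrb cells, and the gonadal list between 8.85 and 8.94 and between 9.14 and 9.16. The 2 of 6 two-cell-like markers on the array summed to 9.78 to 9.99 in GFP and 10.43 to 10.50 in Esrrb cells at day 6. The trophectoderm markers, 4 of 6 detected on all 3 arrays of every group and Elf5 and Hand1 of none, moved with both arm and day. Their summed level lay between 8.98 and 9.15 in GFP cells at day 2 and between 10.64 and 10.69 at day 6, and in Esrrb cells between 10.07 and 10.15 at day 2 and between 13.24 and 13.28 at day 6. The part of these markers in the germline results was not tested. In these bulk samples, fewer cells that express a gene and less RNA per cell cannot be told apart.

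Of the 10 genes, 6 were measured above background and entered the tests: Taf7l, Dazl, Tex11, Aurkc, Stk31 and Ddx4. A probe entered when 1 or more groups had a detection p below 0.05 on each of their 3 arrays. Taf7l, Tex11, Aurkc and Stk31 were detected on all 18 arrays, so that the filter did not depend on a single group for them. Dazl was detected on 17 arrays, and Ddx4 on 13, where both arms at day 4 and GFP cells at day 6 carried it past the filter. Mael and Sycp1 were detected on 0 of 18 arrays, Sycp3 on 1, and the probes of Tdrd1 on 4 and 0. Raw intensities of these last genes reached at most 77.3 for Mael, 66.2 for Sycp1, 75.5 for Sycp3 and 84.1 for the brighter Tdrd1 probe, close to the array medians. No level or difference is given for them, because a transcript under this background cannot be measured here.

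At day 6 the knockdown cells held less of each of the 6 measured transcripts than control cells of the same day, with 6 called lower and 0 higher. Among all 14521 genes tested, 21.2% were called lower and 19.8% higher at that day. The median difference of the 6 genes was -1.25 in log2, against -0.01 over all genes. The 3 Esrrb arrays lay below the 3 GFP arrays for 6 of the 6 genes, a separation that 26.7% of all genes showed in that direction. The difference was negative on each of the 3 BeadChips for each of these genes. Without background correction, which leaves the background in the values and so compresses dim probes, 6 were still called lower, but with differences of -0.70 for Dazl, -0.34 for Stk31 and -0.20 for Ddx4. At day 2, 2 of the 6 were lower (Dazl and Tex11, background 5.54%) and 1 was higher (Aurkc, background 6.59%). At day 4, 2 were lower (Tex11 and Aurkc, background 11.1%) and 0 were higher (background 12.3%). Arrays of the arms were apart at day 2 for Tex11, with Esrrb arrays below (background 11.5%), and for Aurkc, with Esrrb arrays above (background 13.1%). At day 4 they were apart for Tex11, Aurkc and Stk31, with Esrrb arrays below (background 19.7%), and for 0 genes with Esrrb arrays above (background 20.9%). Tests are limma's moderated test with Benjamini-Hochberg adjustment over all genes, and values are log2 differences with their standard errors and 3 arrays per group.

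**Figure D2:**
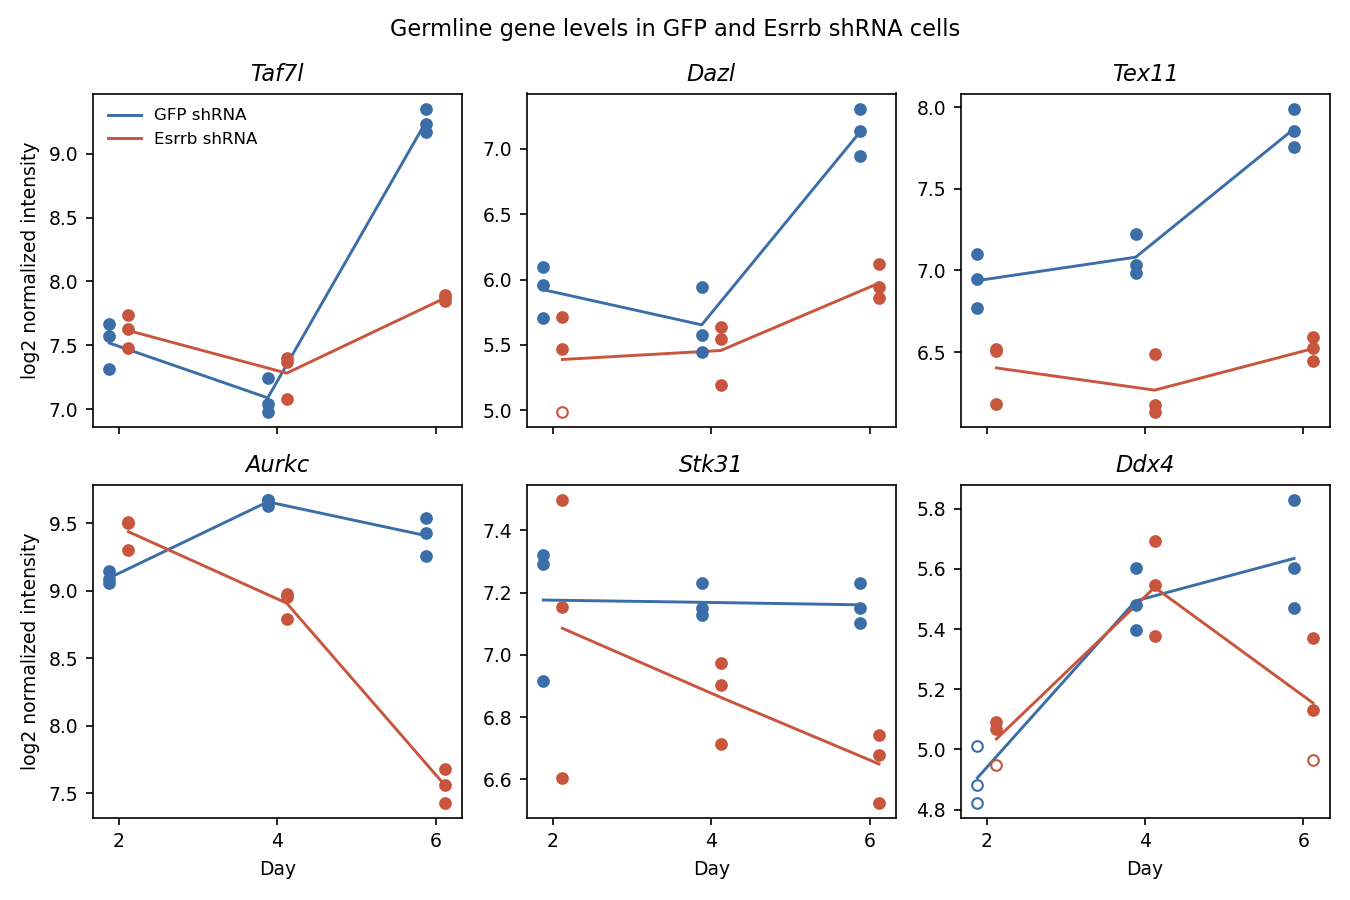
Log2 normalized intensity (y axes, each with its own range) of the 6 measured genes by day (x axis) in GFP shRNA (blue) and Esrrb shRNA cells (red). Points are single arrays, open where the probe was not detected, and lines join group means; at day 6 the red points lie below the blue points in every panel.

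Taf7l was lower in knockdown cells at day 6, and its differences at days 2 and 4 did not pass. Its probe, 3060309, read 7.67, 7.57 and 7.32 in GFP cells at day 2, 6.98, 7.24 and 7.04 at day 4, and 9.35, 9.23 and 9.17 at day 6 (replicates 1 to 3, log2 level). In Esrrb cells it read 7.74, 7.63 and 7.48 at day 2, 7.37, 7.40 and 7.08 at day 4, and 7.87, 7.90 and 7.85 at day 6. The control arrays of day 6 stood above all other arrays, while the arms overlapped at days 2 and 4. Knockdown cells were at 38.4% of the control level at day 6 (-1.38, SE 0.11, adjusted p = 5.81e-09). The difference was 0.10 at day 2 (SE 0.11, adjusted p = 0.648) and 0.19 at day 4 (SE 0.11, adjusted p = 0.241).
The gap at day 6 appeared with a rise in the control cells. From day 2 to day 6 Taf7l rose 3.33-fold in GFP cells (1.73, SE 0.11, adjusted p = 1.97e-10), after a lower level at day 4 (-0.43, SE 0.11, adjusted p = 0.0093). In Esrrb cells the change from day 2 to day 6 was 0.26 (SE 0.11, adjusted p = 0.0837). It passed with the BeadChip as a replicate block (adjusted p = 0.037) and under median centring (0.41, adjusted p = 0.0142). Within the Esrrb arm Taf7l rose from day 4 to day 6 (0.59, SE 0.11, adjusted p = 8.43e-04). The 2 arms' changes from day 2 to day 6 differed by -1.48 (SE 0.16, adjusted p = 1.47e-06).

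Dazl followed a similar course at a dimmer probe. Probe 4050082 read 5.71, 6.10 and 5.96 in GFP cells at day 2, 5.58, 5.94 and 5.44 at day 4, and 6.94, 7.31 and 7.13 at day 6. In Esrrb cells it read 5.47, 5.71 and 4.99 at day 2, 5.64, 5.19 and 5.55 at day 4, and 6.12, 5.86 and 5.94 at day 6. The arms overlapped at days 2 and 4 and were apart at day 6, where the control arrays were the highest of all. At day 4 the difference was -0.20 (SE 0.17, adjusted p = 0.461). The day 6 difference was -1.15 (SE 0.17, adjusted p = 1.5e-05), or 44.9% of the control level. On the BeadChips it was -0.83, -1.45 and -1.19. A second Dazl probe, 103800048, was detected on 8 arrays and showed no such gap at day 6 (-0.03, SE 0.10, adjusted p = 0.842), so the 2 Dazl probes disagree; their mean gave -0.59 (adjusted p = 4.42e-04) and a control rise from day 2 to day 6 of 0.66 (adjusted p = 1.15e-04).
The day 2 difference of Dazl (-0.53, SE 0.17, adjusted p = 0.0447) rested on a narrow margin. It did not pass in 16 of 26 alternatives, among them the one without replicate 3 of Esrrb day 2, an array on which the probe was not detected (-0.33, adjusted p = 0.232). Dazl rose 2.31-fold in GFP cells from day 2 to day 6 (1.21, SE 0.17, adjusted p = 6.62e-06), with a step of 1.47 from day 4 to day 6 (SE 0.17, adjusted p = 1.42e-06). It also rose in Esrrb cells, by 0.58 (SE 0.17, adjusted p = 0.0102), but this was 0.38 without that array (adjusted p = 0.0814) and 0.51 without replicate 1 of Esrrb day 6 (adjusted p = 0.0524). Its step from day 4 to day 6 in Esrrb cells (0.51, SE 0.17, adjusted p = 0.0352) lost its call in 7 of 26 alternatives. Among these were the fits without replicate 2 or 3 of Esrrb day 4 (adjusted p = 0.166 and 0.0561) and without replicate 1 or 3 of Esrrb day 6 (adjusted p = 0.132 and 0.0704). The difference between the 2 rises was -0.62 (SE 0.24, adjusted p = 0.064) and did not pass. Without replicate 3 of Esrrb day 2 it was -0.82 (adjusted p = 0.0113), and without replicate 2 of GFP day 2 it was -0.71 (adjusted p = 0.0488).

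Tex11 was lower in knockdown cells on each of the 3 days. Probe 70575 read 6.77, 7.10 and 6.95 in GFP cells and 6.18, 6.52 and 6.51 in Esrrb cells at day 2. At day 4 it read 7.03, 6.98 and 7.23 against 6.14, 6.18 and 6.49, and at day 6 it read 7.76, 7.85 and 7.99 against 6.45, 6.59 and 6.52. The arms did not overlap on any day, and the Esrrb arrays stayed within a narrow band throughout. The difference was -0.53 at day 2 (SE 0.12, adjusted p = 0.0048), -0.81 at day 4 (SE 0.12, adjusted p = 3.24e-05) and -1.35 at day 6 (SE 0.12, adjusted p = 2.12e-08). The last left knockdown cells at 39.3% of the control level. Control cells rose 1.90-fold from day 2 to day 6 (0.93, SE 0.12, adjusted p = 2.37e-06), with a step of 0.79 from day 4 to day 6 (SE 0.12, adjusted p = 3.9e-05). Knockdown cells were at 0.12 (SE 0.12, adjusted p = 0.48) over the same days, and the 2 changes differed by -0.81 (SE 0.17, adjusted p = 0.0015). For Tex11, then, a gap present at day 2 widened as the control arm rose.

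Aurkc had the largest day 6 difference of the 6 genes, and it came mainly from a fall in the knockdown arm. Probe 4060687 read 9.05, 9.09 and 9.14 in GFP cells at day 2, 9.63, 9.67 and 9.67 at day 4, and 9.26, 9.54 and 9.42 at day 6. In Esrrb cells it read 9.50, 9.30 and 9.51 at day 2, 8.79, 8.98 and 8.95 at day 4, and 7.68, 7.43 and 7.56 at day 6. The arms did not overlap on any day, but their order turned over: the Esrrb arrays were the higher ones at day 2 and the lower ones at days 4 and 6. The day 2 difference was 0.34 (SE 0.10, adjusted p = 0.0244), and it lost its call in 6 of 26 alternatives. Among these were the fits without replicate 1 or 2 of GFP day 2 (adjusted p = 0.0698 and 0.0557) and without replicate 1 or 3 of Esrrb day 2 (adjusted p = 0.0939 and 0.0881). At day 4 it was -0.75 (SE 0.10, adjusted p = 6.69e-06) and at day 6 -1.85 (SE 0.10, adjusted p = 8.65e-12), a level 27.7% of the control.
Over time Aurkc fell 3.68-fold in Esrrb cells from day 2 to day 6 (-1.88, SE 0.10, adjusted p = 1.45e-11), in steps of -0.53 to day 4 (adjusted p = 5.4e-04) and -1.35 from there (adjusted p = 8.84e-09). In GFP cells it was higher at day 6 than at day 2 by 0.31 (SE 0.10, adjusted p = 0.0116), a call lost without replicate 2 of GFP day 6 (0.25, adjusted p = 0.0731). The control level peaked at day 4 (0.56 above day 2, SE 0.10, adjusted p = 3.58e-04), and the step from day 4 to day 6 was -0.25 (adjusted p = 0.0511). That step passed in 8 of 26 alternatives, among them the replicate block (adjusted p = 0.0487), and ran from -0.32 to -0.09 over the 26. The 2 arms' changes from day 2 to day 6 differed by -2.19 (SE 0.14, adjusted p = 1.11e-09).

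Stk31 was lower in knockdown cells at day 6 by a smaller margin, with control arrays that moved by less than their spread. Probe 1660519 read 7.29, 7.32 and 6.92 in GFP cells at day 2, 7.15, 7.13 and 7.23 at day 4, and 7.15, 7.23 and 7.10 at day 6. In Esrrb cells it read 7.15, 7.50 and 6.60 at day 2, 6.71, 6.90 and 6.97 at day 4, and 6.53, 6.68 and 6.74 at day 6. The Esrrb arrays of day 2 were widely spread and overlapped the control arrays, and at days 4 and 6 they lay below them. The day 6 difference was -0.51 (SE 0.16, adjusted p = 0.0136), or 70.2% of the control level, and it was -0.45 without replicate 1 of Esrrb day 6 (adjusted p = 0.0602). At day 4 it was -0.31 (SE 0.16, adjusted p = 0.182) and at day 2 -0.09 (SE 0.16, adjusted p = 0.777).
The control change from day 2 to day 6 was -0.02 (SE 0.16, adjusted p = 0.947), and it was 0.15 under median centring. In Esrrb cells Stk31 fell by 0.44 (SE 0.16, adjusted p = 0.0364), a call lost in 7 of 26 alternatives. Without replicate 2 of Esrrb day 2 the change was -0.23 (adjusted p = 0.258), and without replicate 3 of that group it was -0.68 (adjusted p = 5.67e-04). It also lost the call without replicate 1 of that group (adjusted p = 0.10) and without replicates 1 and 2, in turn, of Esrrb day 6 (adjusted p = 0.128 and 0.068). The difference between the arms' changes was -0.42 (SE 0.22, adjusted p = 0.187) and was -0.66 without replicate 3 of Esrrb day 2 (adjusted p = 0.011). The second Stk31 probe was detected on 0 of 18 arrays.

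Ddx4 lay close to the detection limit. Probe 6620138 read 4.88, 4.82 and 5.01 in GFP cells at day 2, where none of the arrays detected it, then 5.48, 5.40 and 5.60 at day 4 and 5.83, 5.60 and 5.47 at day 6. In Esrrb cells it read 5.09, 4.95 and 5.07 at day 2 and 5.13, 5.37 and 4.96 at day 6, with 2 of 3 arrays detecting it on each of those days, and 5.38, 5.69 and 5.55 at day 4. The arms overlapped at days 2 and 4 and not at day 6. The day 2 difference did not pass (adjusted p = 0.546), and no size is given for it, since no control array of that day detected the probe. At day 4 the difference was 0.04 (SE 0.12, adjusted p = 0.838). The day 6 difference was -0.48 (SE 0.12, adjusted p = 0.0024), with -0.70, -0.23 and -0.51 on the BeadChips. Control cells stood at least 1.51-fold higher at day 6 than at day 2, a bound set by the detection floor of the day 2 arrays (adjusted p = 3.14e-05). At day 4 they already stood at least 1.37-fold higher (adjusted p = 0.0012). Esrrb cells rose to day 4 (0.50, SE 0.12, adjusted p = 0.0041) and fell from there by 0.38 (SE 0.12, adjusted p = 0.0235), to a level 0.12 above that of day 2 (SE 0.12, adjusted p = 0.462). That fall lost its call without replicate 2 or 3 of Esrrb day 4 (adjusted p = 0.116 and 0.0632) and without replicate 1 or 3 of Esrrb day 6 (adjusted p = 0.0637 and 0.127). The test of the difference between the arms' changes from day 2 to day 6 passed (adjusted p = 0.0103). Its fitted value is not a measured size, since it rests on the day 2 control arrays that did not detect the probe. A second Ddx4 probe was detected on 0 of 18 arrays.

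**Figure D3:**
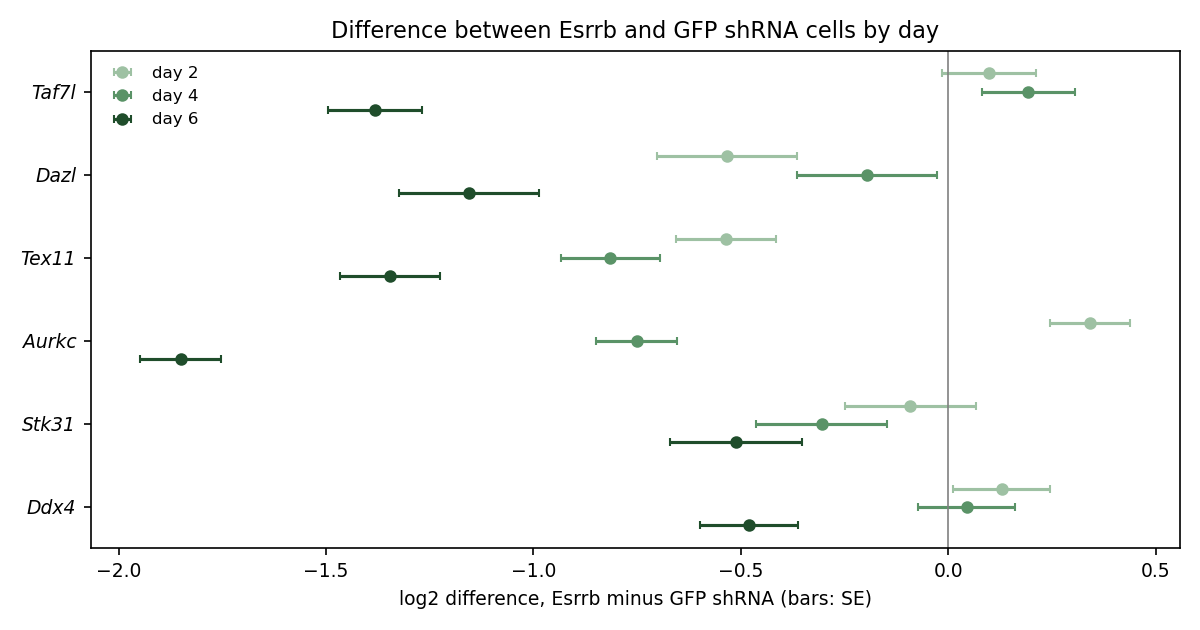
Log2 difference between Esrrb and GFP shRNA cells (x axis) for the 6 measured genes at days 2, 4 and 6 (light to dark green), with bars of 1 standard error of the fit and 3 arrays per group. The day 6 values run from -1.85 for Aurkc to -0.48 for Ddx4. Tex11 is below 0 on each day and Aurkc is above 0 at day 2. The day 2 value of Ddx4 rests on control arrays that did not detect it and is not a measured size.

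The time course separated the genes by which arm moved. In control cells, 5 of the 6 measured genes were higher at day 6 than at day 2 and 0 were lower. Of all genes, 25.9% were called higher and 23.2% lower in that comparison. In knockdown cells, 1 was higher (Dazl) and 2 were lower (Aurkc and Stk31), where 19.5% of all genes were called higher and 17.6% lower. The count of higher genes in knockdown cells was near the background. For Taf7l, Dazl and Tex11 the control cells' higher level at day 6 arose between days 4 and 6, the 3 genes called higher in that step (background 19.2%). From day 2 to day 4, GFP cells gave 2 higher calls (Aurkc and Ddx4, background 13%) and 1 lower (Taf7l, background 10.5%). In Esrrb cells, 1 gene was higher from day 2 to day 4 (Ddx4, background 10.8%) and 2 were lower (Taf7l and Aurkc, background 8.66%), of which the Taf7l call was lost in 11 of 26 alternatives. From day 4 to day 6, 2 Esrrb calls were higher (Dazl and Taf7l, background 10.5%) and 2 lower (Aurkc and Ddx4, background 10.8%).
The difference between the arms' changes from day 2 to day 6 was itself called lower for 4 genes (Taf7l, Tex11, Aurkc and Ddx4) and higher for 0, where 13.9% of all genes were called lower and 11.3% higher. For Taf7l and Tex11 the control arm rose while the change in the knockdown arm did not pass, though that of Taf7l passed in 2 of 26 alternatives. For Aurkc the knockdown arm fell while the control arm was slightly higher. These comparisons share arrays, since the day 2 and day 6 arrays of each arm enter both the arm comparison and the time comparison.

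**Figure D4:**
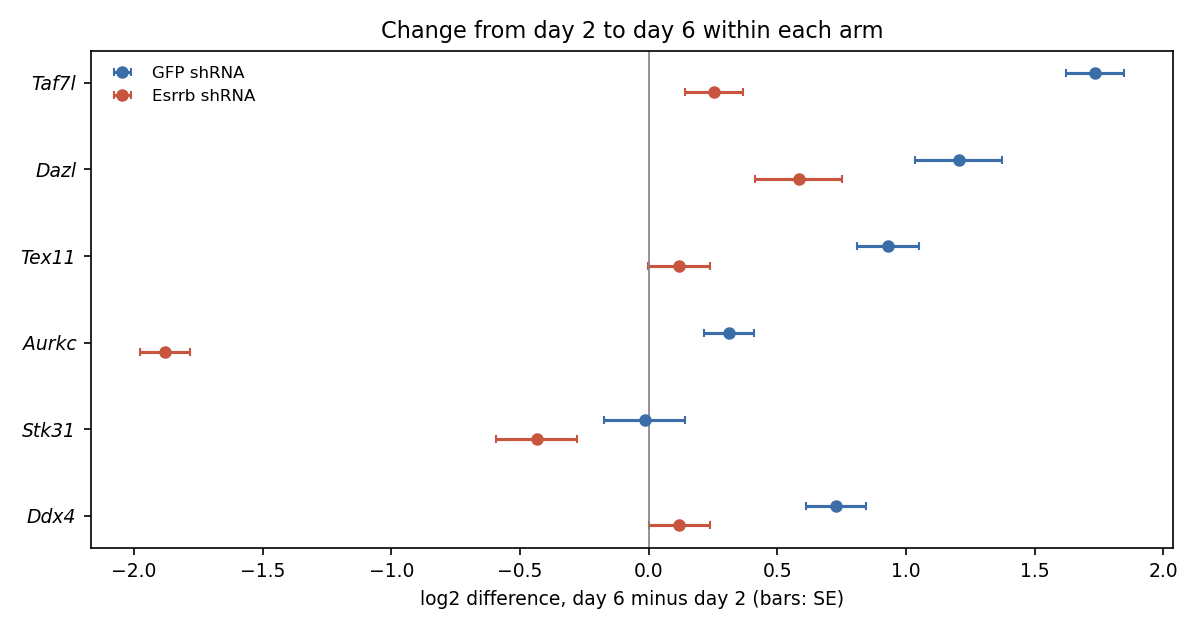
Log2 change from day 2 to day 6 (x axis) of the 6 measured genes in GFP shRNA (blue) and Esrrb shRNA cells (red), with bars of 1 standard error of the fit and 3 arrays per group. The control values run from -0.02 for Stk31 to 1.73 for Taf7l, and the knockdown values from -1.88 for Aurkc to 0.58 for Dazl. The control value of Ddx4 starts from day 2 arrays that did not detect it and is not a measured size.

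Other genes of the same processes were followed with lists that hold none of the 10 genes. Of 8 tested synaptonemal complex and meiotic cohesin genes, 7 were lower and 0 higher in knockdown cells at day 6, with a median of -1.15. Of all genes tested, 21.2% were lower and 19.8% higher in this comparison, with a median of -0.005, and these shares apply to each list at day 6. Smc1b, a meiotic cohesin subunit, was at 6.10 ± 0.11 in knockdown and 7.72 ± 0.18 in control cells (log2 level, SD, n = 3), a level 3.06-fold lower in knockdown cells (adjusted p = 9.5e-08). Stag3, its cohesin partner, differed by -1.15 (SE 0.12), Syce3, a central element protein, by -1.16 (SE 0.12), and Sun1, which ties telomeres to the nuclear envelope, by -1.14 (SE 0.09). In control cells 6 of these 8 genes rose from day 2 to day 6 and 0 fell, against 25.9% and 23.2% of all genes. In knockdown cells 2 rose and 4 fell, against 19.5% and 17.6% of all genes, so that the count of those that rose was near the background.
Of 8 tested genes of meiotic entry and recombination, 4 were lower and 0 higher at day 6, with a median of -0.30. Rec114, needed for meiotic DNA breaks, differed by -1.57 (SE 0.12), Meiob, a single-stranded DNA binding protein, by -1.41 (SE 0.14, detected on 1 of 3 Esrrb arrays), and Meioc, which sustains meiotic prophase, by -1.19 (SE 0.14). Prdm9, which marks recombination hotspots, differed by -0.32 (SE 0.11, adjusted p = 0.0279), a call lost in 6 of 26 alternatives, among them the fits without replicate 2 or 3 of either arm at day 6. Rec114 was also lower at days 2 and 4 (-0.66 and -1.04), while Meiob was not detected on any array of day 2 in either arm. Meiob was detected on all 3 arrays only in GFP cells at days 4 and 6. It thus entered the count of lower genes only through the arm where it was high. In control cells 2 of the 8 genes rose from day 2 to day 6 and 2 fell. Both counts were near the 25.9% and 23.2% of all genes.

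Of 15 tested piRNA and germ granule genes, 6 were lower and 2 higher at day 6, with a median of -0.15, where 21.2% of all genes were lower and 19.8% higher. Mov10l1, an RNA helicase of piRNA production, rose from 5.52 ± 0.09 at day 2 to 7.64 ± 0.05 at day 6 in control cells and stood at 6.35 ± 0.12 in knockdown cells at day 6 (log2 level, SD, n = 3). Its day 6 difference was -1.29 (SE 0.10, adjusted p = 4.19e-09), although it was higher in knockdown cells at day 2 (0.56, SE 0.10, adjusted p = 7.86e-04). The PIWI gene Piwil2 differed by -0.95 (SE 0.11). Piwil1, not detected on any Esrrb array of day 6, was at least 1.74-fold higher in control cells. Only GFP groups detected Piwil1 on all 3 arrays, so it entered the count of lower genes only through the arm where it was high. Tdrd3, a tudor protein also expressed outside the germ line, was higher in knockdown cells (0.77, SE 0.08). In control cells 7 of the 15 genes rose from day 2 to day 6 and 4 fell, against 25.9% and 23.2% of all genes. The count of those that fell was near the background.
Of 10 tested genes of later male and female germ cells, 6 were lower and 0 higher, with a median of -0.41. They included Tex14, of the intercellular bridges (-1.08, SE 0.10), the transcription factor genes Sohlh1 (-0.88, SE 0.10) and Figla (-0.38, SE 0.09), and Ldhc, the germ cell lactate dehydrogenase (-0.70, SE 0.12). In control cells 4 of these 10 genes rose from day 2 to day 6 and 3 fell, against 25.9% and 23.2% of all genes.

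Of 8 tested primordial germ cell factors, 4 were higher and 2 lower at day 6, with a median of 0.38, and the count of lower genes was near the 21.2% of all genes. Dppa3, a maternal and germ cell chromatin protein, stood at 9.25 ± 0.01 in knockdown cells against 7.98 ± 0.06 in control cells (log2 level, SD, n = 3; difference 1.27, SE 0.08). Ifitm3, an interferon-induced membrane protein, was higher by 1.29 (SE 0.09). Nanos3, an RNA-binding protein of germ cells, was at least 1.63-fold higher, since no control array of day 6 detected it. Kit, the stem cell factor receptor, was at 9.40 ± 0.15 against 11.31 ± 0.03 at day 6, a level 3.76-fold lower in knockdown cells (adjusted p = 3.15e-11). Over time Kit rose in both arms, by 0.77 in Esrrb and 1.50 in GFP cells from day 2 to day 6 (adjusted p = 1.2e-05 and 9.42e-10). In control cells 2 of the 8 factors rose over these days and 2 fell, near the 25.9% and 23.2% of all genes.

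Known repressors of germline genes were tested as a list of 23 on the array, of which 20 passed the filter. At day 6, 7 were higher in knockdown cells, 4 lower and 9 did not pass, with a median of 0.19. Over all genes 19.8% were higher and 21.2% lower, so that the lower count was near the background. Dnmt3b, a de novo DNA methyltransferase, was higher by 1.34 (SE 0.10, adjusted p = 2.83e-09), Tfdp1, a partner of E2F factors, by 0.67 (SE 0.12), Hells, a chromatin remodeller of DNA methylation, by 0.64 (SE 0.12), and Ehmt2, an H3K9 methyltransferase, by 0.44 (SE 0.09). In control cells 10 of the 20 were lower at day 6 than at day 2 and 1 was higher, against background shares of 23.2% lower and 25.9% higher. Dnmt3b changed by -1.17, Ehmt2 by -1.14 and Hells by -1.11 in that time course. In knockdown cells 6 were lower and 1 higher over the same days, against 17.6% and 19.5%. These values stand beside those of the germline genes, and no link between them was tested.
Paralogues of the 10 genes gave 1 lower and 2 higher call among 6 tested at day 6, where 21.2% of all genes were lower and 19.8% higher. Each of these calls was lost in some alternatives. Aurkb, the mitotic relative of Aurkc, differed by -0.33 (SE 0.10, adjusted p = 0.0118), a call lost in 3 of 26 alternatives. Taf7, the general relative of Taf7l, differed by 0.27 (SE 0.09, adjusted p = 0.0295), lost in 7, and Ddx3x, an RNA helicase related to Ddx4, by 0.56 (SE 0.22, adjusted p = 0.0496), lost in 14. Taf7l2 was at -0.35 (SE 0.14, adjusted p = 0.0503; adjusted p = 0.0496 with the replicate block) and passed in 12 of 26 alternatives. Probe sequences were not used here, so cross-hybridisation between relatives was not tested. Among core pluripotency genes at day 6, Pou5f1 was at -0.12 (SE 0.09, adjusted p = 0.292; 0.02 when its probes were averaged), Sox2 at -0.68 (SE 0.09; -0.24 when averaged, adjusted p = 0.141) and Nanog at -0.42 (SE 0.10; -0.89 when averaged, and not past the threshold under median centring, adjusted p = 0.0647).

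**Figure D5:**
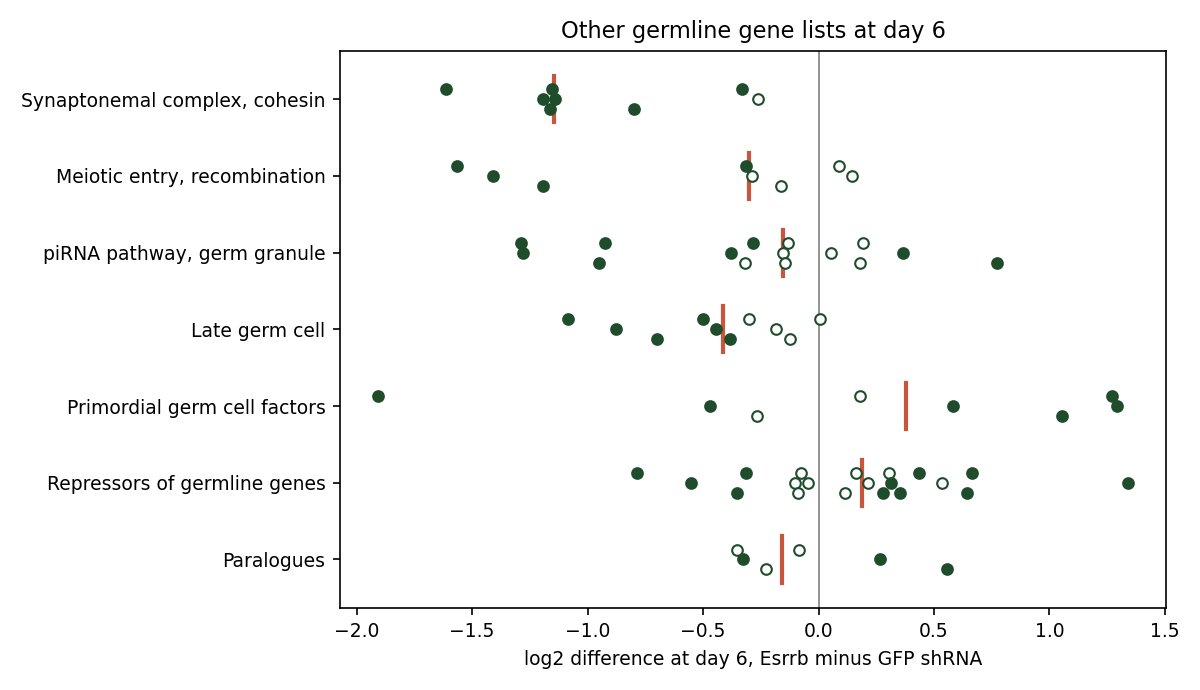
Log2 difference between Esrrb and GFP shRNA cells at day 6 (x axis) for each tested gene of 7 gene lists (y axis). Filled points passed the test, open points did not, and red bars are list medians, from -1.15 for the synaptonemal complex and cohesin list to 0.38 for the primordial germ cell factors.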

How the data were processed

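RNA of 18 samples was hybridised to 1 Illumina array each. Per the file headers, the deposited intensity is BeadStudio 3.2.6's bead mean per probe, neither normalized nor background-corrected. Detection p-values were computed as 1 minus the deposited detection score. The deposited bead number (median 37 per probe, range 3 to 107) was read but not used as a weight. The authors' second table, whose identifiers match none of the raw table, was not used.

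In R 4.3.3 with limma 3.58.1, neqc was run with those p-values and an offset of 16 (normexp correction, quantile normalization, log2). Control spots and non-mouse probes (312) were left out. Filtering at a detection p of 0.05 on all 3 arrays of at least 1 group left 19440 probes, and the probe with the highest mean stood for a gene, which left 14521 genes. One linear model over the 6 groups gave 10 two-sided contrasts, each adjusted by Benjamini-Hochberg over all genes (threshold 0.05). The number of arrays limits the precision. The code was tested on simulated data. RefSeq names (GRCm38.p6) matched 16079 target names by symbol and 6654 by synonym; 11253 were kept as given, and 27 that a spreadsheet had altered were unnamed. A fold against a group without any detection is a bound against the detection floor.

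The 10 genes and the lists were chosen with earlier results of these data known. Named genes were all 10, Esrrb, Pou5f1, Sox2 and Nanog, and from each list up to 4 genes with the lowest adjusted p at day 6, whether or not they passed. The replicate number is the BeadChip, and each chip held 1 array of each group. Deviations of same-numbered arrays from their group means correlated at a median of 0.126 (33 of 45 pairs over 0.1), against -0.07 for different numbers, and all 18 arrays correlated best with their own number.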

Additional observations from a re-analysis of the deposited data

Results flagged for a closer look

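For 4 genes the change from day 2 to day 6 differed between the knockdown and control arms by limma's test of that difference, adjusted over all genes, with 3 arrays per group. The knockdown arm's change minus that of the control arm was -1.48 for Taf7l, -0.81 for Tex11, -2.19 for Aurkc and -0.61 for Ddx4 in log2. Control cells rose for Taf7l and Tex11, and knockdown cells fell for Aurkc. The fitted value was also negative for Ddx4 (-0.61), but it is not a measured size, since no GFP array of day 2 detected its probe. Each of these 4 calls held in all 26 alternatives run.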

How the results depend on the processing

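The day 6 calls of Taf7l, Dazl, Tex11, Aurkc and Ddx4 held in all 26 alternatives. The alternative that tested every probe followed the brighter Dazl probe, so the second Dazl probe could not change the call there. That second probe did not pass at day 6 (-0.03, adjusted p = 0.842). Leaving out single arrays gave 5 to 6 lower calls at day 6. At day 2 the lower calls were 1 without background correction, with median centring, without the filter, with the mean of probes, with every probe tested and with the arrays of the contrast alone, and 1 to 2 when arrays were left out. The single higher call at day 2 became 0 with median centring and with the contrast's arrays, and lay between 0 and 1 when arrays were left out. With the replicate block, GFP cells gave 1 lower call from day 4 to day 6, and Esrrb cells gave 2 higher calls from day 2 to day 6; the block changed no other call of the 6 genes. That 1 lower GFP call also appeared without background correction, with the stricter filter (detection p under 0.01) and with the mean of probes (0 to 1 with arrays left out). Esrrb calls from day 4 to day 6 became 1 lower and 1 higher without background correction, 1 lower with median centring, and 1 higher without the filter or with the mean of probes (1 to 2 each with arrays left out). From day 2 to day 4 the lower Esrrb calls became 1 with median centring, without the filter and with the contrast's arrays (1 to 3 with arrays left out), and the lower GFP call became 0 with the contrast's arrays. From day 2 to day 6 the lower Esrrb calls became 1 with median centring, without the filter and with the contrast's arrays (1 to 2 with arrays left out), and the higher ones 2 with median centring (0 to 1 with arrays left out).

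Over all genes, 1762 calls at day 2 became 860 with the contrast's arrays, and 3402 calls in GFP cells from day 2 to day 4 became 2224 with median centring and 1862 with the contrast's arrays. Median centring shifted the median of all genes by 0.10 for the day 4 comparison of the arms and by 0.12 for GFP cells from day 4 to day 6. Its higher and lower calls were 2428 and 788 (against 1790 and 1606) for the arms at day 4, 3714 and 1132 (2788 and 2394) for GFP cells from day 4 to day 6, and 4171 and 2248 (3757 and 3362) from day 2 to day 6. For Esrrb cells they were 1505 and 646 (1573 and 1257) from day 2 to day 4, 1630 and 795 (1524 and 1574) from day 4 to day 6, and 3380 and 1453 (2828 and 2555) from day 2 to day 6.

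Signs turned for 8 single-gene differences, and none of these had passed the test. With median centring Stk31 in GFP cells was at 0.20 from day 4 to day 6 and at 0.15 from day 2 to day 6, and with the mean of probes Pou5f1 was at 0.0193 at day 6. When single arrays were left out, Stk31 in GFP cells ran from -0.1368 to 0.0649 for day 4 against day 2, from -0.1448 to 0.0568 for day 6 against day 2, and from -0.0428 to 0.0224 for day 6 against day 4. Between the arms at day 2 it ran from -0.2969 to 0.1501. Taf7l at day 2 ran from -0.0025 to 0.1729, Ddx4 at day 4 from -0.0314 to 0.1253, and Dazl in Esrrb cells from day 2 to day 4 from -0.1304 to 0.2299. The cause was not tested. Without background correction 26 called single-gene values shrank by over 1.5 times, and 22 of them kept their call. At day 6 the difference between the arms became -0.70 for Dazl, -0.20 for Ddx4, -0.34 for Stk31, -1.07 for Smc1b, -0.64 for Meiob, -0.71 for Meioc, -0.62 for Piwil2, -0.49 for Sohlh1, -0.40 for Ldhc and -0.16 for Figla. The fitted values behind the bounds became -0.60 for Piwil1 and 0.46 for Nanos3. Tex11 became -0.33 at day 2 and -0.51 at day 4, and Mov10l1 0.27 at day 2. Dazl rose by 0.72 in GFP cells from day 2 to day 6, by 0.85 from day 4 to day 6, and by 0.26 in Esrrb cells from day 2 to day 6. Ddx4 rose by 0.21 in Esrrb cells from day 2 to day 4, and the 3 of its values that rest on the undetected GFP day 2 group are not given. The 4 that lost their call were Dazl at day 2 (-0.24), Prdm9 at day 6 (-0.16), and the Esrrb steps from day 4 to day 6 of Dazl (0.24) and Ddx4 (-0.16). With the mean of probes Dazl rose by 0.81 in GFP cells from day 4 to day 6 and by 0.34 in Esrrb cells from day 2 to day 6. Signal close to background limits what can be said of Ddx4 and of the second Dazl probe.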
